A study of Mus musculus with 18 samples.

Results

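Expression of 9 genes was followed across 18 mouse mammary tumors. The genes are Met, which encodes the receptor tyrosine kinase for hepatocyte growth factor, Hgf, which encodes that ligand, and 7 protein-coding neighbours of Met on chromosome 6: Tfec, Tes, Cav2, Cav1, Capza2, St7 and Cttnbp2. They were chosen by name among the 57126 genes of the table, with the uneven Met levels of these tumors already known, so the level of Met is described here without a test. All 9 genes passed the filter on low counts, which kept 22481 genes. The annotation places 43 genes within 1 Mb of Met, Met included, of which 30 passed the filter. Of these 43 genes, 11 are protein-coding, and all 11 passed. The 3 coding genes in this window outside the chosen list are Wnt2, Asz1 and Cftr.

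The tumors arose in female F1 mice of BALB/c and C57BL6/J parents after adenoviral Cre was injected into the mammary gland. In MaP R172H/- (7 tumors, 7 mice) and MaP R245W/- (5 tumors, 5 mice) animals, recombination left 1 missense Trp53 allele and 1 null allele in the infected ductal epithelium. In MaP -/- animals (6 tumors from 4 mice) it left no Trp53 allele. Cells that were not recombined, the stroma included, kept wild-type Trp53 in every group. Some animals of the mutant groups also carried a Rosa26LSL-TdTomato reporter (YZ2, YZ6, YZ10, JM1233, JM1564 and RM0014). The sample labels name JM779-T1 and JM836-T1, whereas the table of tumors in the study marks another tumor of each of these mice as sequenced. The labels' names are kept here, and which tumor these values belong to was not settled. Mice JM663 and JM833 gave 2 tumors each, so the MaP -/- tumors are not 6 independent animals. Counts per tumor totalled 23113578 to 37365062 (median 27624186). Every MaP R172H/- library was sequenced on a HiSeq instrument and every other library on a NovaSeq instrument. Genotype and instrument thus cannot be told apart in comparisons with the MaP R172H/- group. The study classed every MaP R172H/- tumor as a nonmetaplastic adenocarcinoma of luminal B or HER2-enriched subtype. It classed every MaP R245W/- and MaP -/- tumor as triple-negative, and most of these as metaplastic. Subtype thus also follows the MaP R172H/- group, and histology in part, and neither was separated from genotype here. Levels are given as CPM, counts scaled to a common library size with TMM factors. The 7 epithelial markers checked were detected in every group. Their summed level ran from 297 to 8630 CPM in the MaP R172H/- tumors, from 456 to 6090 in the MaP R245W/- tumors and from 146 to 2780 in the MaP -/- tumors. In bulk tissue more cells of a type and more RNA per cell cannot be told apart.

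In the mammary gland, HGF is made mainly by stromal cells, and MET is displayed by the epithelium, where the activated receptor recruits the adaptors GAB1 and GRB2 and signals through RAS-MAPK, PI3K and STAT3 toward growth, branching and motility. HGF is secreted as an inactive single chain and is cut by serine proteases such as HGFAC, matriptase, hepsin and urokinase, which the inhibitors SPINT1 and SPINT2 oppose. MET is removed from the surface by CBL-dependent endocytosis. The neighbours of Met have unrelated roles. Caveolin 1 and caveolin 2, from Cav1 and Cav2, form the coat of caveolae. Testin, from Tes, is a LIM domain protein of focal adhesions. CAPZA2 is a subunit of the protein that caps the barbed ends of actin filaments. ST7 is a membrane protein from a gene proposed as a tumor suppressor, CTTNBP2 binds cortactin and is known from neurons, and TFEC is a transcription factor of the MiT family expressed in macrophages.

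Met (ENSMUSG00000009376.16) lies on the plus strand of chromosome 6 from 17463749 to 17573979 in GRCm39. In the 5 MaP R245W/- tumors its level was 728.1 CPM in JM1233, 4934 in JM1564, 10060 in RM0014, 521 in JM1126 and 12600 in JM1133. In the 7 MaP R172H/- tumors it had a lowest value of 57.33 CPM (YZ7), a median of 9186 and a highest value of 12860 (YZ3). The 6 MaP -/- tumors ran from 2111 CPM (JM833-T2) through a median of 7689 to 15770 (JM663-T1). All 3 groups overlapped, and the 4 lowest tumors were 2 from each mutant group: YZ4 at 207.3 CPM and YZ7, and JM1233 and JM1126. No tumor had between 728.1 and 2111 CPM, so 14 tumors lay above 1000 CPM and 4 below it. The highest tumor had 275.1 times the level of the lowest. Means were 7539 ± 5375 CPM (SD, n = 7) in the MaP R172H/- group, 5769 ± 5449 (SD, n = 5) in the MaP R245W/- group and 7691 ± 4934 (SD, n = 6) in the MaP -/- group.

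Met was among the most abundant transcripts wherever it was high. By CPM, which does not correct for gene length, it was among the 5 highest genes of the tumor in 11 of 18 tumors and among the 12 highest in 14. It ranked 1 in JM663-T1, whereas it ranked 94 in JM1233, 251 in JM1126, 656 in YZ4 and 4114 in YZ7. Per kb of annotated exon its ranks were lower, from 7 (JM663-T1) to 46 (JM833-T2) in the tumors above 1000 CPM. In the tumors below that limit they ran from 226 (JM1233) to 5058 (YZ7). The standard deviation of its log2 CPM over the 18 tumors was 2.34, and 1.57% of 17427 genes with a mean of at least 1 CPM had a larger one, beside a median of 0.57 over those genes. The plot of the 9 genes by genotype shows these levels.

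**Figure D1:**
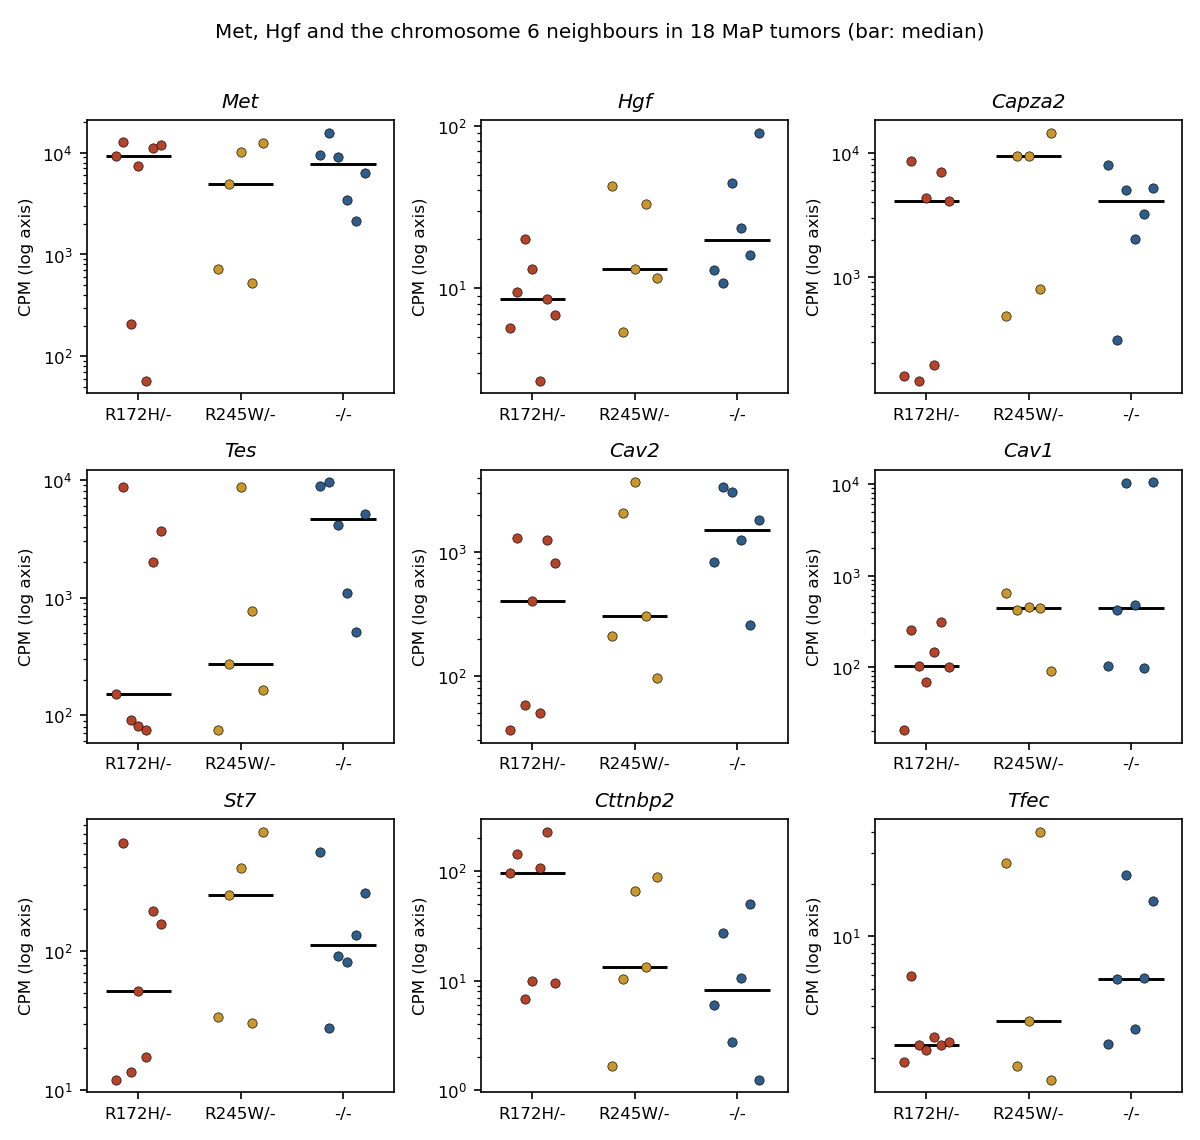
Level of each of the 9 genes in every tumor, in CPM on a log axis, by genotype (7 MaP R172H/-, 5 MaP R245W/- and 6 MaP -/- tumors), with the bar at the group median. Met medians are 9186, 4934 and 7689 CPM and the groups overlap. Cav1 exceeds 10000 CPM in 2 MaP -/- tumors and is at or below 637.6 CPM in the other 16.

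The start regions of Met, Cav2 and Capza2 are printed because these 3 genes were often high in the same tumors, and that of Cav1 because it was not. Each window holds 250 bases before and 50 after a RefSeq transcription start (from a table of build GRCm38.p6), placed in GRCm39 by a single exact match on the plus strand. They are chr6:17463706-17464005 for Met, chr6:17280934-17281233 for Cav2, chr6:17306084-17306383 for Cav1 and chr6:17636759-17637058 for Capza2. Capitals mark 4 motifs searched on both strands: the GC box GGGCGG, the AP-1 element TGAGTCA, the CCAAT box CCAAT and the TATA box TATAAA, where matches may overlap.
Met: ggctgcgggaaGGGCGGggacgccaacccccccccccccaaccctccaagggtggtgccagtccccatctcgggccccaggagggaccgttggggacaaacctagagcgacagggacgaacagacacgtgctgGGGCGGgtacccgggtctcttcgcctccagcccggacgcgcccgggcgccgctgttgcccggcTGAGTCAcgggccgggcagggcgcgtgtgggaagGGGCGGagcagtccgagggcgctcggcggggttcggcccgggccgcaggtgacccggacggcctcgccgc
Cav2: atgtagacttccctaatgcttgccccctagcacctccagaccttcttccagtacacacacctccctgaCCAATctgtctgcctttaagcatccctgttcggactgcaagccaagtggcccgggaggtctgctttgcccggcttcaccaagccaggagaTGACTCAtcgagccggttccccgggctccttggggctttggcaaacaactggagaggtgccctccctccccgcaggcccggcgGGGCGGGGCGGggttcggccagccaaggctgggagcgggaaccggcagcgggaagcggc
Cav1: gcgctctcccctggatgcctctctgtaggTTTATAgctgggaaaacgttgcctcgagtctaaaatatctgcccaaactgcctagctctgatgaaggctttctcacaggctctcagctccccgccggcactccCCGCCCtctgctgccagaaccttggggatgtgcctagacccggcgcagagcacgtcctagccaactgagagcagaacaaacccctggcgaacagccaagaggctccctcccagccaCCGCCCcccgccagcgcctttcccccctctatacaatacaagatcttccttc
Capza2: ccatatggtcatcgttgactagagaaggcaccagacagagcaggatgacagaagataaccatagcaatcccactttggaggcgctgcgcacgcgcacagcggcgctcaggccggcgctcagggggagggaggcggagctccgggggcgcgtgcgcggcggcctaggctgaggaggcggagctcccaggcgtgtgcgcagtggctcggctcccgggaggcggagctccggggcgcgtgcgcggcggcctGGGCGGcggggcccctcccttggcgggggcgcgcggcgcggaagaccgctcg

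The Met window held 34 CpG dinucleotides, a number reached by 7.73% of the 32851 windows in the table, and 75.7% of its bases were G or C. It had 3 GC boxes and 1 AP-1 element. Capza2 had 38 CpG, reached by 4.95% of windows, with 1 GC box. Cav2 had 16 CpG, 2 GC boxes, 1 AP-1 element and 1 CCAAT box. The first Cav1 window had 13 CpG, 2 GC boxes and 1 TATA box, read on the minus strand. The windows of Tes and St7, genes also often high with Met, are not printed and held no AP-1 element. Among all windows, 35.7% held a GC box, 5.2% an AP-1 element, 37.4% a CCAAT box and 13.6% a TATA box, and the median CpG count was 7. These matches describe letters in a window and say nothing of binding.

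Hgf (ENSMUSG00000028864.8), the gene of the ligand, lies on chromosome 5 from 16758041 to 16828178 on the plus strand, and was low in every tumor. In the MaP R245W/- tumors it stood at 42.71 CPM in JM1233, 5.417 in JM1564, 13.14 in RM0014, 32.98 in JM1126 and 11.59 in JM1133. The MaP R172H/- tumors ran from 2.704 CPM (YZ7) through a median of 8.584 to 20.01 (YZ4). In the MaP -/- tumors the lowest value was 10.85 CPM (JM663-T1), the median 19.86 and the highest 90.47 (JM779-T1). Thus 6 tumors had more than 20 CPM, 3 of them MaP -/-. JM1233 and JM1126, both low in Met, were among those 6, and YZ4, the next lowest in Met after YZ7, was the MaP R172H/- tumor highest in Hgf. YZ7 was lowest in both receptor and ligand.

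Toward lower coordinates from Met, the nearest coding genes were Cav1 and Cav2. Cav1 (ENSMUSG00000007655.17, chr6:17306140-17341451, 122.3 kb from Met) was at 637.6 CPM in JM1233, 420.5 in JM1564, 457.7 in RM0014, 447.2 in JM1126 and 91.23 in JM1133. The MaP R172H/- tumors had 20.28 CPM at the lowest (YZ2), 102.2 at the median and 309.5 at the highest (YZ10). The MaP -/- tumors had 97.62 CPM at the lowest (JM833-T2), a median of 446, and 10320 in JM663-T2 and 10510 in JM779-T1. These 2 tumors stood apart from the other 16, all at or below 637.6 CPM.

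Cav2 (ENSMUSG00000000058.7, chr6:17281026-17289877, 173.9 kb from Met) did not share that pattern. It was highest in RM0014 at 3695 CPM and in JM663-T1 at 3386, with 3104 in JM663-T2 and 1811 in JM779-T1. The other MaP R245W/- tumors had 210.5 CPM in JM1233, 2092 in JM1564, 304.9 in JM1126 and 96.16 in JM1133. MaP R172H/- tumors ran from 36.1 CPM (YZ2) through 400.2 at the median to 1300 (YZ3), and MaP -/- tumors from 258.8 CPM (JM833-T2) through 1529 at the median.

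Tes (ENSMUSG00000029552.20, chr6:17065144-17105827, 357.9 kb from Met) reached levels near those of Met in several tumors. It stood at 74.34 CPM in JM1233, 272.1 in JM1564, 8642 in RM0014, 773.5 in JM1126 and 164.3 in JM1133. In the MaP R172H/- group it ran from 75.21 CPM (YZ7) through 151.1 to 8742 (YZ3), and in the MaP -/- group from 511.8 CPM (JM833-T2) through 4622 to 9540 (JM663-T1). All 6 MaP -/- tumors and 5 of the others exceeded 500 CPM, and the groups overlapped. Gm4876, a noncoding gene on the opposite strand that overlaps Tes, was also highest where Tes was high, with 629.8 CPM in JM836-T1, 567.5 in JM663-T1 and 443.1 in YZ3, beside 5.393 in JM1133. The libraries were stranded, but the strand setting used for counting is not given in the sources used here, so reads of the pair may not be fully separated. Tfec (ENSMUSG00000029553.11, chr6:16833372-16898440, minus strand, 565.3 kb from Met) was low, at 1.492 to 5.929 CPM in 14 tumors. The exceptions were 26.42 CPM in JM1233, 39.9 in JM1126, 22.67 in JM663-T2 and 16.03 in JM779-T1.

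Toward higher coordinates, Capza2 (ENSMUSG00000015733.14, chr6:17636233-17667148) begins 62.3 kb after the end of Met. Its level was 485.5 CPM in JM1233, 9418 in JM1564, 9425 in RM0014, 803.3 in JM1126 and 14630 in JM1133. MaP R172H/- tumors ran from 144.5 CPM (YZ4) through 4101 to 8662 (YZ3), and MaP -/- tumors from 310.1 CPM (JM663-T1) through 4114 to 8077 (JM836-T1). Capza2 exceeded 2000 CPM in 12 tumors, and all 12 had Met above 1000 CPM. The 2 tumors with high Met but low Capza2 were YZ2, with 157.1 CPM of Capza2 and 9186 of Met, and JM663-T1, with 310.1 and 15770.

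St7 (ENSMUSG00000029534.18, chr6:17692932-17943024, 119.0 kb from Met) had lower CPM but a similar order of tumors to Capza2. It stood at 33.7 CPM in JM1233, 253.9 in JM1564, 395.4 in RM0014, 30.43 in JM1126 and 720.5 in JM1133. MaP R172H/- tumors ran from 11.86 CPM (YZ2) through 51.71 to 598.2 (YZ3), and MaP -/- tumors from 28.24 CPM (JM663-T1) through 111.3 to 514.1 (JM836-T1). Cttnbp2 (ENSMUSG00000000416.17, chr6:18366477-18514842, minus strand, 792.5 kb from Met) was at 1.649 CPM in JM1233, 10.27 in JM1564, 65.05 in RM0014, 13.2 in JM1126 and 87.59 in JM1133. It ran from 6.815 CPM (YZ4) through 95.83 to 227.2 (YZ10) in the MaP R172H/- group and from 1.238 CPM (JM779-T1) through 8.282 to 49.49 (JM833-T2) in the MaP -/- group.

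Scaled per kb of annotated exon, the median level over the 18 tumors ranked in the order Met (1060 CPM per kb), Capza2 (653), Cav2 (193), Tes (99.3), Cav1 (56.5), St7 (9.94), Cttnbp2 (1.35), Hgf (1.22) and Tfec (0.498). The ranges of neighbours in this order overlapped in all 8 cases. Capza2 exceeded Cav2 in 17 of 18 tumors, Cav1 exceeded St7 in 15, and St7 exceeded Cttnbp2 in 14, as did Hgf over Tfec. Met exceeded Capza2 per kb in only 10 tumors, Cav2 exceeded Tes in 10, Tes exceeded Cav1 in 9, and Cttnbp2 exceeded Hgf in 10, so these 4 pairs had no steady order. Spread between tumors was wide for most of the genes. The standard deviation of log2 CPM was 2.72 for Tes, 2.29 for Cav1, 2.28 for Capza2, 2.25 for Cttnbp2, 2.18 for Cav2 and 1.93 for St7, and at most 4.33% of genes had a larger one. Tfec (1.46) and Hgf (1.24) were less variable, with 10.7% and 15.3% of genes above them.

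Which neighbours were high together with Met differed from tumor to tumor. A gene was counted as raised in a tumor where its log2 CPM lay 2 or more (4-fold) above its own 10th percentile over the 18 tumors, a rule chosen after the data were seen. Met was raised in 14 tumors, Cav2 and Capza2 in 13 each, Cttnbp2 in 12, Tes and St7 in 11 each, Cav1 in 8, Hgf in 5 and Tfec in 4. Of the expressed genes, 1.1% were raised in as many tumors as Met, 2.07% as Cav2 or Capza2 and 3.15% as Cttnbp2. The share was 4.57% for Tes or St7, 9.81% for Cav1, 17.7% for Hgf and 21.3% for Tfec, and the median gene was raised in 0. Within a tumor, between 8.92% (JM779-T1) and 15.4% (JM833-T1) of the expressed genes were raised.

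Over the 6 genes from Tes to St7 the 18 tumors showed 10 combinations. All 6 genes were raised in RM0014, JM663-T2, JM833-T1 and JM779-T1. All but Cav1 were raised in 5 tumors: YZ3, YZ10, YZ11, JM836-T1 and JM833-T2. In JM1564 all but Tes were raised. Met was raised alone in YZ2, with Capza2 and St7 in JM1133, and with Cav2 and Capza2 in YZ6. JM663-T1 combined Tes, Cav2, Cav1 and Met without Capza2 and St7, and JM1126 had Tes, Cav2, Cav1 and Capza2 raised without Met. Only Cav1 was raised in JM1233, and none of the 6 in YZ4 and YZ7. Cav1 was raised in 0 MaP R172H/- tumors, 4 MaP R245W/- tumors and 4 MaP -/- tumors.

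**Figure D2:**
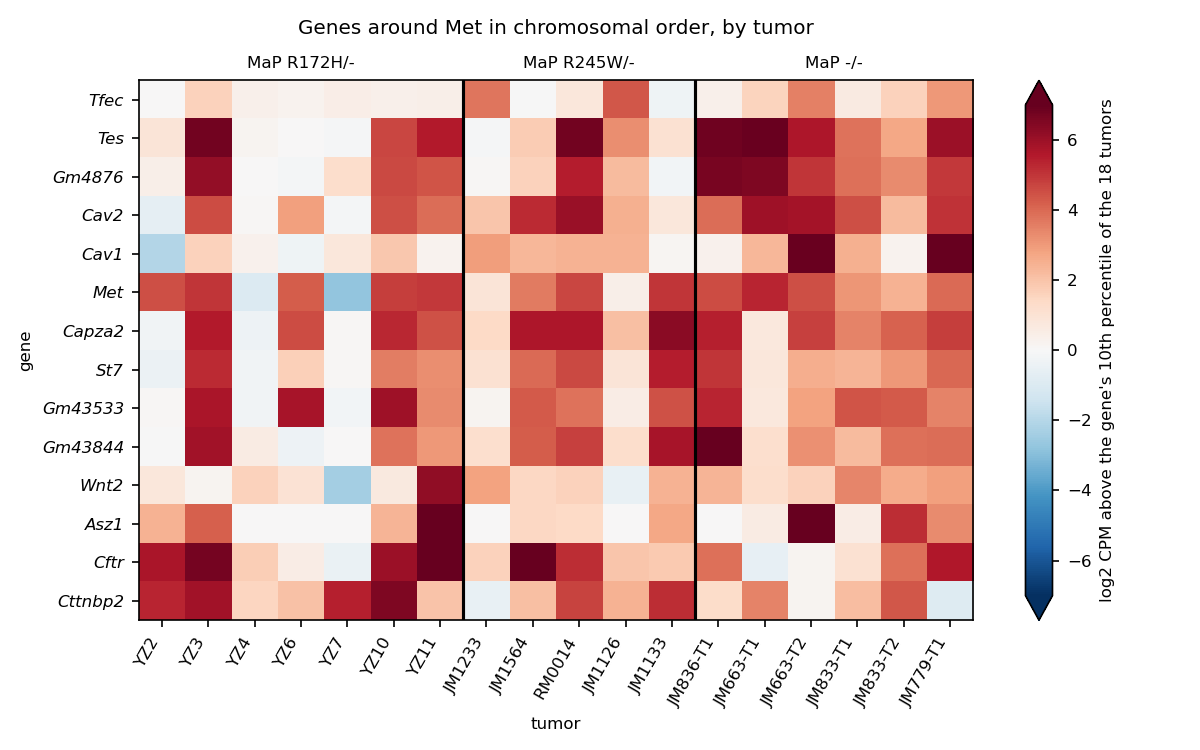
Level of 14 genes around Met in chromosome order (rows) in each of the 18 tumors (columns), as log2 CPM minus the gene's own 10th percentile, on a colour scale of -7 to 7. The stretch of high values runs from Tes to St7 in RM0014, begins before Tes in JM663-T2, stops at Met in JM663-T1, begins at Met in JM1133, and is absent in YZ4 and YZ7.

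In order along the chromosome, the unbroken run of raised coding genes that contained Met held 2 or more genes in 13 tumors. It covered Met alone in YZ2 and Met with Capza2 (0.203 Mb) in YZ6. It began at Met and reached St7 in YZ3 and YZ10 (0.479 Mb), Wnt2 in JM836-T1 (0.568 Mb), Asz1 in JM1133 (0.645 Mb) and Cftr in YZ11 (0.859 Mb). Of these, only JM1133 had none of Tes, Cav2 and Cav1 raised. In YZ3, YZ10, YZ11 and JM836-T1, as in JM833-T2, Tes and Cav2 were raised and only Cav1 broke the run. In YZ6 Cav2 was raised but Cav1 was not. Another set began before Met: Tes to Met in JM663-T1 (0.509 Mb), Cav2 to St7 in JM1564 (0.662 Mb), Tes to St7 in RM0014 (0.878 Mb), Tes to Wnt2 in JM833-T1 (0.967 Mb) and Tfec to Cftr in JM779-T1 (1.489 Mb). By length, the longest runs were 4.389 Mb in JM833-T2, from Met to Tspan12 (10 genes), and 3.042 Mb in JM663-T2, from Foxp2 to St7 (9 genes). The run in JM779-T1 also held 10 genes. These lengths skip noncoding genes. Along all expressed genes, the JM833-T2 run ended at Gm43843 (0.967 Mb) and the JM663-T2 run at Gm55215 (2.794 Mb). The RM0014 run then went from Cav2 to Gm43844 (0.64 Mb). The rule planned first took 1 log2 unit above the gene's median over the 18 tumors, along all expressed genes. By that rule 0 tumors had a run of 2 or more genes, since Met itself never reached the step. The highest Met value was 0.946 above its median, in JM663-T1. Since a median baseline lies high where most tumors have a raised gene, the count depends on the baseline.

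Some coding genes at the ends of these runs were low even where raised. Wnt2, which ended the run in JM836-T1, was at 3.015 CPM there, Asz1, which ended that in JM1133, at 0.3825 CPM (10 counts), and Foxp2, which began that in JM663-T2, at 0.9432 CPM. Cftr, the chloride channel gene, reached 314.4 CPM in JM1564, 150.4 in YZ11 and 119.3 in YZ3, and was at 0.7212 CPM in JM663-T1 and 4.055 in JM1133, whose runs stopped before it. Wnt2 was at 44.34 CPM and Asz1 at 31.12 CPM in YZ11. Within the St7 gene, 3 unclassified features of the annotation were counted separately: Gm43533, 24.6 kb after the start of St7, Gm42852 at 54.6 kb on the opposite strand, and Gm43844 at 222.1 kb. In YZ6, where Capza2 was raised but St7 was not, these had 188, 72.3 and 1.03 CPM, with St7 at 51.71. In YZ3 they had 185, 46 and 83.5 CPM, in JM836-T1 141, 82.8 and 216, and in YZ2 3.66, 0.617 and 1.32. Thus YZ6 had levels like YZ3 at the near features and like YZ2 at the far one. JM833-T1 also had a high near feature (75.4 CPM) beside a low far one (6.52 CPM).

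Both tumors of mice JM663 and JM833 had Met above 1000 CPM, as did all 6 MaP -/- tumors. By the rule for raised genes, the JM663 tumors differed from Tes to St7 only in Capza2 and St7. The JM833 tumors differed there only in Cav1. JM663-T1 and JM663-T2 had 15770 and 9101 CPM of Met, 3386 and 3104 of Cav2 and 9540 and 4106 of Tes. Cav1, however, stood at 419.4 CPM in T1 and 10320 in T2, a 24.6-fold difference, and 0.625% of expressed genes differed by as much between these 2 tumors. Capza2 stood at 310.1 CPM in T1 and 4991 in T2, a 16.1-fold difference that 1.1% of genes reached, and St7 differed by 1.71 on the log2 scale in the same direction. Cttnbp2 differed the other way, with 27.26 CPM in T1 and 2.732 in T2. The Met difference, -0.79 on the log2 scale as T2 minus T1, was reached by 28.1% of genes, beside a median absolute difference of 0.44. In mouse JM833 the 2 tumors had 3428 and 2111 CPM of Met, a log2 difference of -0.70 that 28.7% of genes reached. There both caveolin genes were lower in T2, with Cav1 at 472.6 and 97.62 CPM and Cav2 at 1248 and 258.8, a log2 difference of -2.27 for each. Of all expressed genes, 2.52% differed by as much as Cav1 and 2.56% by as much as Cav2. Each tumor is 1 library, so these differences have no replicate check and no test.

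**Figure D3:**
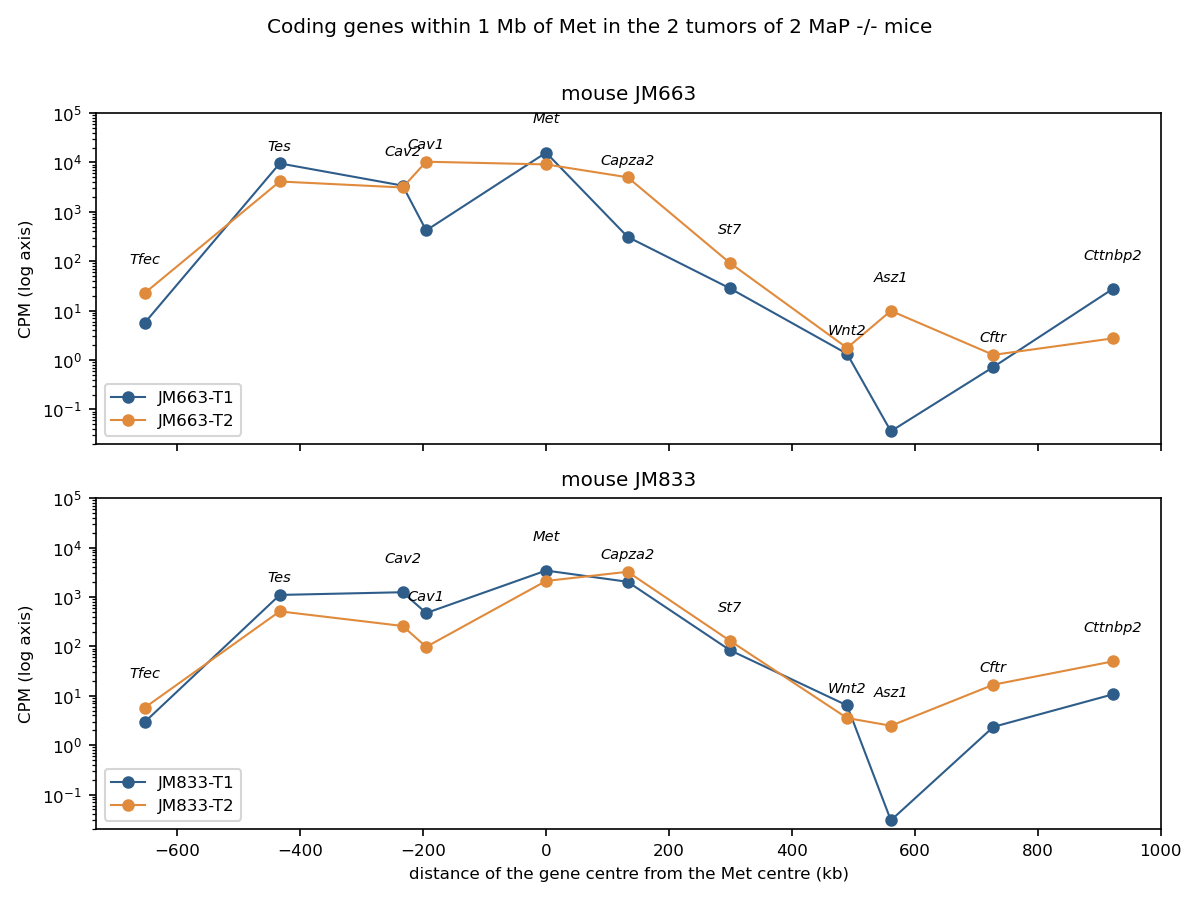
CPM (log axis) of the 11 protein-coding genes within 1 Mb of Met, in chromosome order, in both tumors of mouse JM663 and of mouse JM833 (MaP -/-); each point is 1 library. In JM663, Cav1 is 24.6-fold and Capza2 16.1-fold higher in the second tumor while Met and Cav2 stay close.

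Covariation with Met was calculated on log2 CPM over the 18 tumors and is given as a description, since the points share libraries, genotype and, for 2 mice, the animal. Pearson's r with Met was 0.64 for Capza2 (Spearman's rho 0.52), 0.61 for St7 (0.53), 0.61 for Tes (0.65) and 0.59 for Cav2 (0.47). It was 0.11 for Cttnbp2 (0.30), 0.08 for Cav1 (-0.20), -0.20 for Tfec (-0.20) and 0.02 for Hgf (-0.33). The median over the 7 neighbours was 0.59. Relative to genotype means it was 0.58, within the 11 NovaSeq tumors 0.49, and within the 7 HiSeq tumors 0.64. Without YZ4 and YZ7, which lie farthest from the median of Met, it was 0.36 (n = 16). The r of Met with Hgf depended on YZ7, without which it was -0.43 (n = 17). It was -0.49 without YZ4 and YZ7, -0.37 within the NovaSeq tumors and 0.23 within the HiSeq tumors. For Tfec, r was -0.63 without YZ4 and YZ7.

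Since the tumors fall on either side of a gap in Met, r was also taken within the 14 tumors above 1000 CPM. There it was 0.36 for Tes, 0.24 for Cttnbp2, 0.10 for Cav2, 0.08 for St7, -0.03 for Capza2, -0.05 for Cav1 and -0.09 for Tfec, with a median of 0.08, and -0.27 for Hgf. Spearman's rho within these 14 tumors was 0.22 for Capza2 and 0.22 at the median, so the sign for Capza2 depended on the measure. By either measure the values for Capza2, St7, Tes, Cav2 and the median were lower than over all 18 tumors. Those for Cttnbp2 (rho 0.39) and Hgf (rho -0.44) were larger in size. The 14 tumors were chosen by their Met level. A narrower range of Met can by itself lower r, so the drop cannot be read as a weaker relation. Single tumors also weighed on r over the 18 tumors: Capza2 had an r of 0.77 without YZ2 and of 0.76 without JM663-T1.

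**Figure D4:**
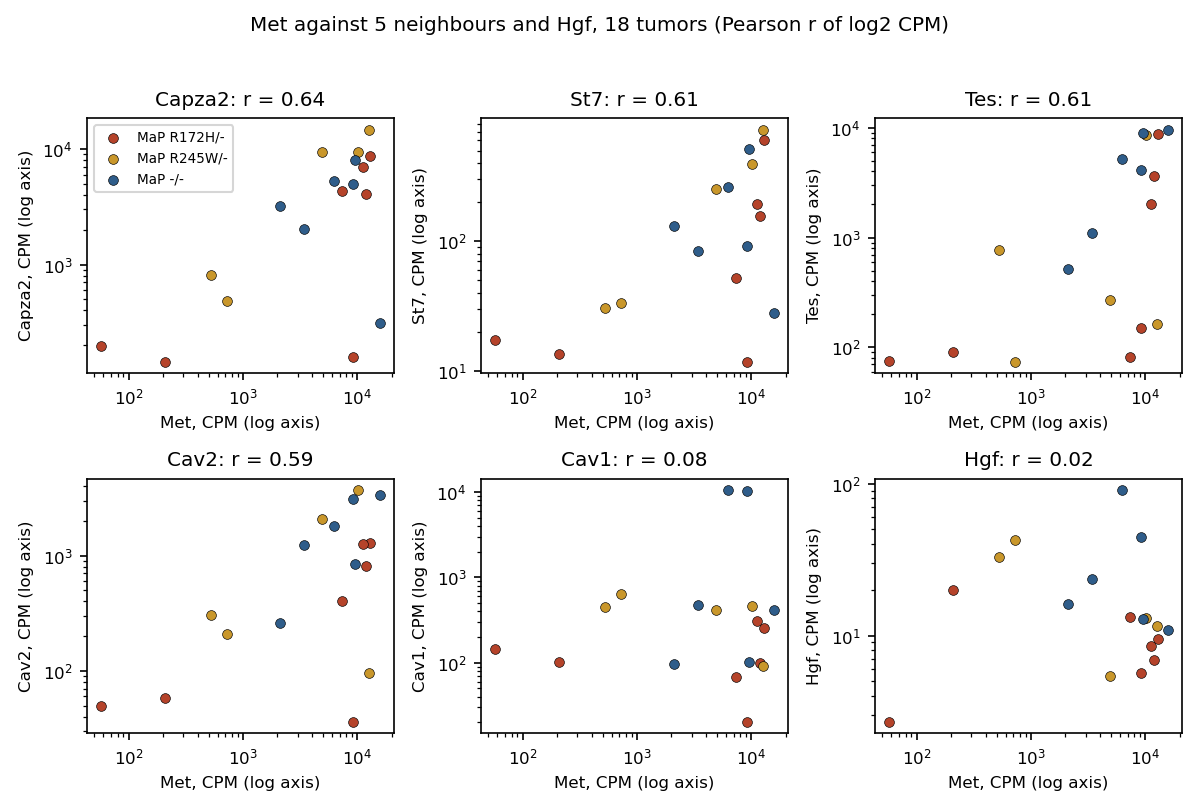
Met (horizontal axis) against Capza2, St7, Tes, Cav2, Cav1 and Hgf (vertical axes), in CPM on log axes, 1 point per tumor with colour for genotype. The 4 tumors low in Met lie at the lower left for Capza2, with YZ2 and JM663-T1 as low points among the tumors high in Met. For Cav1 r is 0.08, and for Hgf it is 0.02 with all tumors and -0.43 without YZ7.

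Some pairs of neighbours had a higher r with each other than with Met. Capza2 and St7, which lie next to each other, had an r of 0.94 (rho 0.95), and Tes and Cav2 an r of 0.80 (rho 0.77). Cav1 and Cav2, though adjacent, had 0.63 (rho 0.59), and Cav2 and Capza2, on either side of Met, had 0.59. Hgf was most like Tfec (0.74) and Cav1 (0.69) among these genes and ran against Cttnbp2 (-0.71), and Cav1 and Tfec had 0.68.

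Many genes elsewhere followed Met more closely than its neighbours did. Among 17426 other expressed genes, Capza2 ranked 472 by r with Met, St7 648, Tes 656 and Cav2 729, whereas Cttnbp2 ranked 7438, Cav1 7981, Hgf 9002 and Tfec 12595. The 10 genes most like Met were Pmepa1os (r = 0.90), Nav3 (0.89), C1qtnf1 (0.87), Tank (0.87), Rictor (0.87), Gm11747 (0.87), 1700023H06Rik (0.85), Rin2 (0.84), Rexo5 (0.84) and Tm4sf1 (0.84), and 0 of them lie on chromosome 6. By rank correlation 3 of these 10 remained among the 10 most alike, and 5 remained relative to genotype means. None of the 3 lists held a gene within 1 Mb of Met.

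Genotype comparisons addressed whether the missense alleles differ from loss of Trp53 at these genes. They were fitted with edgeR's quasi-likelihood test over all genes, and a gene was called at a Benjamini-Hochberg FDR of 0.05 or less with an absolute log2 fold change of 1 or more. Both comparisons with MaP -/- share those 6 tumors. Met differed by -0.06 on the log2 scale (SE 0.88) between MaP R172H/- and MaP -/-, by -0.44 (SE 0.79) between MaP R245W/- and MaP -/-, and by 0.35 (SE 0.97) between MaP R172H/- and MaP R245W/-. These values describe Met without a test. The errors are larger in each case than the difference, so the values do not show equal levels.

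Between MaP R172H/- and MaP -/- tumors, 1 member was called, Cav1, which was lower by a log2 fold change of -4.70 (SE 1.18, FDR = 0.0261). Of 20954 genes tested, 1051 were called, 354 higher and 697 lower, so 5.02% of all genes passed. The Cav1 values overlapped, since the lowest MaP -/- tumors, JM833-T2 (97.62 CPM) and JM836-T1 (102.2 CPM), lay at the MaP R172H/- median. The group medians, 102.2 and 446 CPM, lay closer than this fold, since 2 MaP -/- tumors exceeded 10000 CPM. Without JM663-T2 the log2 fold change was -4.06 (FDR = 0.0602, edgeR) and without JM779-T1 it was -4.02 (FDR = 0.0492). Without YZ4, YZ6 or YZ11 the log2 fold change was about as large (-4.66, -4.58 and -4.65), but the FDR from edgeR was 0.0504, 0.0534 and 0.0521. The call remained in 9 of the 13 fits that left out 1 tumor, and in the fit with the tumors of 1 mouse summed.

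Hgf and Tfec had log2 differences of -1.82 (SE 0.55, FDR = 0.0554, edgeR) and -1.73 (SE 0.51, FDR = 0.0540) and did not pass. Cttnbp2 had 2.38 (SE 0.99, FDR = 0.157) and Cav2 -1.69 (SE 0.85, FDR = 0.238). Tes (-1.24, SE 1.11), St7 (-0.36, SE 0.90) and Capza2 (-0.22, SE 0.95) had FDR values from edgeR of 0.520, 0.843 and 0.911.

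Between MaP R245W/- and MaP -/- tumors, 0 of 21452 genes were called by edgeR (0%), the members included. At an unadjusted p under 0.05 there were 2527 genes, and DESeq2 called 303. The largest member difference was Cav1 at -3.15 (SE 1.29, FDR = 0.385, edgeR), followed by Tes at -1.31 (SE 1.18, FDR = 0.675) and Cttnbp2 at 1.08 (SE 1.03, FDR = 0.695). Hgf, Cav2, Capza2, St7 and Tfec had log2 differences of -0.64, -0.49, 0.77, 0.60 and 0.65, each with an SE of 0.65 or more.

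Directly between MaP R172H/- and MaP R245W/- tumors, 1392 of 22481 genes were called (6.19%), 466 higher and 926 lower in MaP R172H/-, and 0 members were among them. Tfec came nearest, with -2.38 (SE 0.75, FDR = 0.0548, edgeR), and its high values were JM1233 and JM1126. Hgf had -1.18 (SE 0.58, FDR = 0.208), Cav1 -1.55 (SE 0.99, FDR = 0.339) and Cttnbp2 1.25 (SE 1.06, FDR = 0.487). Cav2 (-1.23), Capza2 (-1.01), St7 (-0.98) and Tes (0.05) had an SE of 0.97 or more. Among the other genes within 1 Mb, the noncoding D830026I12Rik was called higher, at 5.42 (SE 1.60, FDR = 0.0406). That call rests on YZ10 at 71.55 CPM, without which the log2 difference was 1.6 (FDR = 0.205, edgeR).

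**Figure D5:**
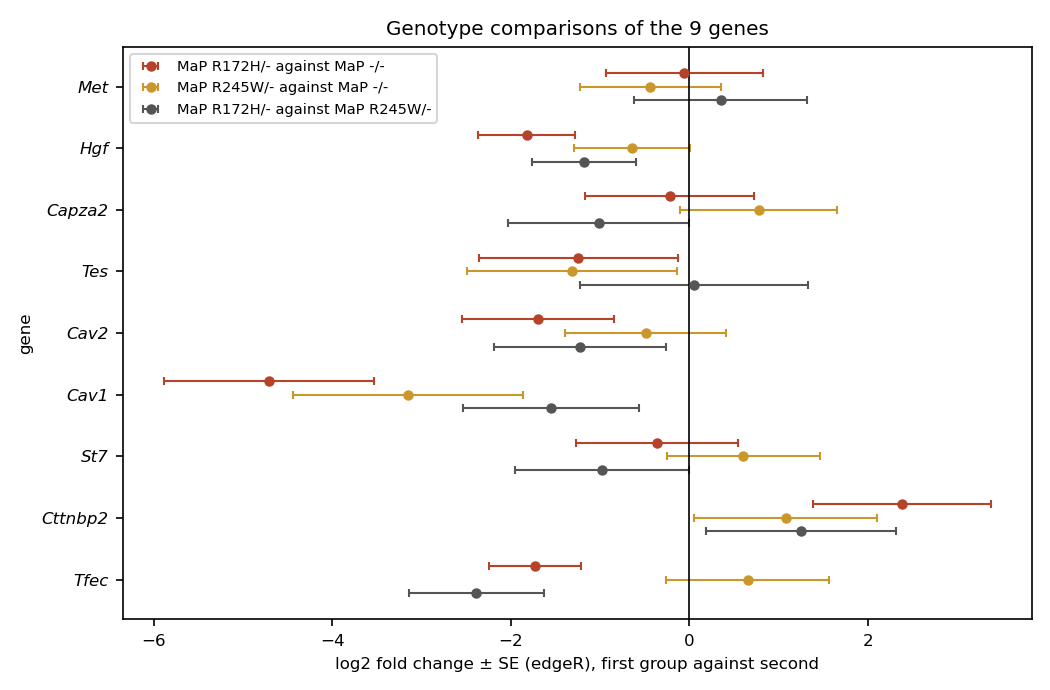
Log2 fold change of the 9 genes in the 3 genotype comparisons, with bars of 1 SE from edgeR; the line at 0 marks equal levels. Met, shown without a test, lies within 1 SE of 0 in all 3, and Cav1 in MaP R172H/- against MaP -/- (-4.70) is the single called value.

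Other genes of the pathway were taken from 6 lists with 64 genes: HGF activation, MET partners at the membrane, adaptors and effectors, negative regulators, MAPK output genes and caveolar genes. Against MaP -/-, 1 of 59 tested genes was called in MaP R172H/- tumors, where 5.02% of all genes were, and 0 of 59 in MaP R245W/- tumors, where 0% were. The called gene was Ccnd1, the cyclin D1 gene, which was higher by 1.39 on the log2 scale (SE 0.31, FDR = 0.0142, edgeR). Its levels were 272 to 599 CPM in MaP R172H/- tumors and 62.2 to 236 in MaP -/- tumors, without overlap, and it was called in 13 of 13 fits with 1 tumor left out. Such a fit keeps the other tumor of mouse JM663 or JM833. With the tumors of 1 mouse summed, Ccnd1 was also called. Nrp1, a coreceptor, and Spred1, a RAS-MAPK inhibitor, had -0.88 (FDR = 0.0302) and -0.74 (FDR = 0.0336), under the fold change limit. The median log2 difference over the lists was 0.075 for MaP R172H/- and 0.210 for MaP R245W/-, against 0.00268 and 0.0195 over all genes tested.

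Between the mutants, 1 of 61 pathway genes was called higher and 3 lower in MaP R172H/- tumors, a share near the 6.19% of all genes called, with a median of -0.198 over the lists and 0.00284 over all genes. Mst1, the ligand gene of the related receptor RON, was higher by 1.76 (FDR = 0.0336, edgeR), a call that remained in 11 of 18 fits with 1 tumor left out. Plau, the urokinase gene, was lower by -3.94 (FDR = 0.0172), and Hgfac, the HGF activator gene, by -4.74 (FDR = 0.0330). Both rest on JM1126, with 4870 CPM of Plau and 77 of Hgfac. Without that tumor the log2 differences were -0.26 (FDR = 0.774) for Plau and 0.21 (FDR = 0.908) for Hgfac. Cavin4, a caveolar coat gene of muscle, was lower by -2.78 (FDR = 0.0286), with 16.5 CPM in JM1233, and by -1.24 (FDR = 0.219) without it. JM1233 also had the highest sum of skeletal muscle markers, 832 CPM, and the part of this in the Cavin4 result was not tested.

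Across the 18 tumors, the list of MAPK output genes had the highest median r with Met, 0.45. Of its 11 genes, 5 had an r above 0.5: Phlda1 (0.73), Dusp6 (0.67), Etv4 (0.66), Dusp4 (0.59) and Spry2 (0.58). These encode feedback inhibitors and targets of RAS-MAPK signalling. Within the 14 tumors above 1000 CPM of Met, r was 0.58 for Etv4, 0.55 for Spry2, 0.48 for Dusp6, 0.24 for Dusp4 and 0.14 for Phlda1. Ccnd1 had an r of -0.03 over all tumors and 0.77 within the 14. Over the 18 tumors the medians were 0.35 for HGF activation genes, 0.15 for negative regulators, 0.09 for adaptors, 0.00 for membrane partners and -0.29 for the other caveolar genes. Of all expressed genes, 8.93% had an r above 0.5 and 7.66% below -0.5, with a median of 0.04. Over the lists, 9 of 60 genes lay above 0.5, among them Spint1 (0.69), Stat3 (0.63), Sh3kbp1 (0.59) and Hpn (0.58), which encodes hepsin. The 5 genes below -0.5 were Icam1 (-0.84), Mst1r (-0.76), Mst1 (-0.59), Cavin2 (-0.54) and Hgfac (-0.52), with Mst1r encoding RON. Within the 14 tumors high in Met, 14 of the 60 genes lay above 0.5, and 4 of these did so over all tumors too: Spint1, Stat3, Etv4 and Spry2. The share of all expressed genes above 0.5 within these 14 tumors is not given here. The counts and list medians within them therefore have no background to be read against. Stat3 had 0.72 there, but Hpn had 0.24 and Sh3kbp1 0.09. The highest after Ccnd1 were Crk (0.75), Stat3 and Ptpn11 (0.70), genes of the adaptor list, whose median of 0.36 was then the highest of the 6 lists, against 0.24 for MAPK output genes. Only Nrp1 (-0.52) lay below -0.5.

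Markers of other cell types moved with some of the 9 genes. Hgf had an r of 0.75 with the summed macrophage markers, 0.65 with neutrophil, 0.63 with endothelial and 0.61 with fibroblast markers. Tfec had 0.78 with macrophage and 0.72 with fibroblast markers. All 6 macrophage markers were detected in every group, with sums of 869 to 1030 CPM in MaP R172H/-, 560 to 3940 in MaP R245W/- and 703 to 2220 in MaP -/- tumors. In the comparison of MaP R172H/- with MaP -/-, markers were called lower from 3 lists: 2 of 6 macrophage markers, Adgre1 (-1.04) and Mrc1 (-2.03), 3 of 6 fibroblast markers, Pdgfra (-2.49), Lum (-1.98) and Fap (-1.19), and 2 of 3 neutrophil markers, S100a8 (-3.13) and S100a9 (-3.66). Over all 20954 genes tested, 5.02% were called, 697 genes of them lower. The macrophage and neutrophil markers not named here were not called lower. The other fibroblast markers had values of 0.64 (Col1a1), 0.12 (Col1a2) and 0.10 (Pdgfrb), and the summed fibroblast level was no lower in MaP R172H/- tumors, with a median of 2400 CPM (1050 to 4710) against 2190 (1790 to 3210). Summed neutrophil markers had medians of 37.9 CPM in MaP R172H/- (5.79 to 76.4) and 204 in MaP -/- tumors (40.7 to 626). Cav1 had an r of 0.50 with neutrophil, 0.48 with macrophage, 0.28 with endothelial and -0.49 with epithelial markers, and the part of these cells in its call was not tested.

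Met had an r of 0.52 with the epithelial markers, 0.50 with neutrophil and -0.48 with basal epithelial markers. Within the 14 tumors above 1000 CPM of Met these were 0.40, 0.16 and -0.005. Of the 4 tumors low in Met, YZ7 (297 CPM) and JM1233 (456 CPM) also had low epithelial sums, but YZ4 (3140 CPM) and JM1126 (3640 CPM) did not. JM779-T1 had the lowest epithelial sum, 146 CPM, with Met at 6277 CPM. JM1126 and JM1233 had the highest fibroblast sums, 18000 and 7060 CPM. No marker of these lists was at 0 in every tumor.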

How the data were processed

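Bulk RNA was sequenced from 18 mammary tumors. The deposited values are whole-number counts per gene, which the authors made with FastQC 0.11.9, STAR 2.7.10b and RSEM 1.3.3 on GRCm39, without normalization. The labels call the libraries stranded. Of 57126 genes, 56620 matched GENCODE M39 by identifier, and the 506 others held at most 0.0464% of a tumor's counts. Groups came from the labelled genotype. Tumors of a group had Spearman correlations of 0.8219 to 0.9704.

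Counts were analysed with edgeR 4.0.16 in R 4.3.3: TMM, filterByExpr and the quasi-likelihood test with Benjamini-Hochberg adjustment, each mutant group against MaP -/- in its own fit and the mutants against each other in a fit of all 18 tumors. SE is the absolute log2 fold change over the square root of F. log2 CPM used a prior count of 2 for correlations. The alternatives were DESeq2 1.42.0, other filters, thresholds, scaling and samples, and each tumor left out. edgeR was tested on simulated data with 200 changed genes. Python 3.11.15 with pandas 2.3.3 did the rest. The genes with the highest Pearson r with Met were named, with members, called pathway genes and the genes near Met. The genes and lists were chosen with earlier results of these data known. Each tumor is 1 library, and p-values measure the spread between these tumors. Proteins, copy number and metastases were not analysed here.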

Additional observations from a re-analysis of the deposited data

Results flagged for a closer look

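In each group of 5 to 7 tumors, the gap of the highest or lowest log2 CPM to the nearest tumor was divided by the range. This share was compared with Dixon's 95% critical value. Levels below are printed as CPM, on which the share differs. Of 27 combinations of gene and group, 2 exceeded it, and chance gives about 1 in 20. Cav1 was low in the MaP R245W/- tumor JM1133, at 91.23 CPM, beside 420.5 to 637.6 CPM in the other MaP R245W/- tumors. Tfec was high in the MaP R172H/- tumor YZ3, at 5.929 CPM, beside 1.895 to 2.62 CPM in the other MaP R172H/- tumors. The cause was not tested for either.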

How the results depend on the processing

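For MaP R172H/- against MaP -/-, the number of called genes (1051) became 1760 by FDR alone, 287 with an absolute log2 fold change above 2, 615 with at least 10 counts in every tumor and 2130 with DESeq2, and 740 to 1119 with 1 tumor left out. Of the members, 1 was called, 2 with at least 10 counts in every tumor (Tfec joined, FDR = 0.0452), 4 with DESeq2 (Hgf at FDR = 0.0125, Tfec at 0.0127 and Cttnbp2 at 0.0494 joined), and 0 to 2 with 1 tumor left out. For MaP R245W/- against MaP -/-, the count of 0 became 303 with DESeq2, 2 in a fit of all 18 tumors, and 0 to 3 with 1 tumor left out. Between the mutants, 1392 became 2114 by FDR alone, 526 above the higher fold change, 657 with at least 10 counts and 2402 with DESeq2, and 1086 to 1548 with 1 tumor left out. Members called there went from 0 to 1 with DESeq2 (Tfec, FDR = 0.0146), and were 0 to 1 with 1 tumor left out. The median r of Met with its neighbours (0.59) was 0.08 over tumors with Met above 1000 CPM, where the r of Capza2 was -0.03 (by Spearman's rho 0.22 for both the median and Capza2), and 0.49 to 0.66 with 1 tumor left out. The number of tumors with a run of 2 or more genes was 0 as planned, 3 with a step of 0.5, and with the 10th percentile as baseline 13, 13 and 11 at steps of 2, 1 and 3.

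With 1 tumor left out, some differences that were not called changed sign: Capza2 (-0.63 to 0.11) and St7 (-1.37 to 0.27) in MaP R172H/- against MaP -/-, St7 (-0.08 to 1.24) and Tfec (-0.17 to 1.15) in MaP R245W/- against MaP -/-, and Tes (-1.01 to 2.69) between the mutants. Hgfac there ran from -5.52 to 0.21. Of the other calls between the mutants, those of Mst1 (FDR = 0.053) and D830026I12Rik (0.0571) were lost without a filter on low counts, and those of Hgfac (0.0727), Cavin4 (0.0507) and D830026I12Rik (0.0889) in an edgeR fit of the mutants alone. DESeq2 gave no adjusted p for Hgfac and Plau. The 10th-percentile rule and the limit of 1000 CPM were chosen after seeing the data. The cause was not tested. No paired analysis was possible because replicate numbers in the labels do not link tumors of different groups.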
